A study of Mus musculus with 4 samples.

Results

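Iron storage and transport genes were followed through nuclei of the mouse thalamus after a local injection of collagenase IV (Coll IV), which breaks down vessel walls and causes bleeding, or of saline. The set was chosen by symbol and holds 10 genes of the 40091 listed in the files. Fth1 and Ftl1 encode the heavy and light chains of ferritin, Trf, Tfrc, Slc11a2, Steap3 and Lcn2 serve the uptake of iron, and Slc40a1, Cp and Heph serve its export. All 10 genes had UMIs in the files. All mice were wild-type adult C57BL6 mice about 7 to 8 weeks old, and tissue was taken 7 days after the injection. The NS group received saline and the COL group received Coll IV, and both were given into the VPM and VPL nuclei of the right thalamus. Each library pooled the tissue of 3 mice of a single group, and each group had 2 libraries, so that the values of single mice cannot be separated. In single-nucleus RNA sequencing (snRNA-seq) every RNA molecule is counted by its unique molecular identifier (UMI) and assigned to a nucleus by a barcode.

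Ferritin stores iron in a shell of heavy and light chains, and the heavy chain oxidizes the iron that enters. Transferrin carries iron in the fluid outside the cell and is taken in by the transferrin receptor, after which STEAP3 reduces the iron and DMT1, the product of Slc11a2, carries it out of the endosome. Ferroportin, the product of Slc40a1, exports iron, and the ferroxidases ceruloplasmin and hephaestin oxidize it on the way out. In the brain, oligodendrocytes are rich in ferritin and transferrin, and macrophages take up the iron of red cells after a bleed. Iron regulatory proteins bind a short RNA hairpin, the iron-responsive element, in the untranslated regions (UTRs) of several of these transcripts.

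The sites of this hairpin are shown because they tie the storage, uptake and export genes of the set to a common sequence. A site was searched for as a bulged C, 5 bases, the loop CAGTGN and 5 bases that pair with the first 5, with G opposite T allowed, on the strand of the transcript. In each line the capitals mark the loop, the letters are those of the DNA strand that matches the transcript (GENCODE M21, build GRCm38), and the line gives 27 bases from 5′ to 3′.
Fth1, 5′ UTR, chr19:9982733-9982759, plus strand: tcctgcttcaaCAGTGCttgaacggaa
Ftl1, 5′ UTR, chr7:45459780-45459806, minus strand: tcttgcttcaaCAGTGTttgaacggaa
Slc40a1, 5′ UTR, chr1:45925466-45925492, minus strand: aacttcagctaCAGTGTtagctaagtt
Tfrc, 3′ UTR, chr16:32631220-32631246, plus strand: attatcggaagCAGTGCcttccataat
Tfrc, 3′ UTR, chr16:32631599-32631625, plus strand: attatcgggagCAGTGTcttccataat
Tfrc, 3′ UTR, chr16:32631664-32631690, plus strand: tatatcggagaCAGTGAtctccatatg
Tfrc, 3′ UTR, chr16:32631711-32631737, plus strand: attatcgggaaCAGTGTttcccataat
Fth1, Ftl1 and Slc40a1 hold 1 site each near the start of the transcript, and Tfrc holds 4 sites in its 3′ end. In all, 3 of the 10 genes had such a site in a 5′ UTR, against 31 of 20580 protein-coding genes with a 5′ UTR (0.151%). A site in a 3′ UTR was found for 1 of the 10 genes and for 129 of 20978 genes (0.615%). A match is a description of the letters, and for the other 6 genes no site with these letters was found in the UTRs searched. An element with an unpaired base in the stem or with another loop would be missed. The search thus does not show that a gene lacks an element or has no further ones.

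The 4 libraries held 32291 nuclei after the filter of the study's methods, between 5931 and 10422 each, with 68723738 to 77546840 UMIs. COL nuclei were fewer and deeper, with medians of 8664 and 8691 UMIs against 6489 and 4649 in NS. Pairs of libraries shared 8 to 31 barcodes. Levels are given as counts per 1e6 (CPM), the UMIs of a gene per 1e6 UMIs of that cell type and library. Cell types are marker-defined clusters and are meant as neuron-like, astrocyte-like and so on, with the members of the set kept out of the clustering. The groups mostly fell into separate clusters. Oligodendrocytes were clusters 0 and 7 in NS and 3 and 11 in COL, astrocytes 4 and 18, oligodendrocyte precursors (OPC, with committed precursors) 16 and 13, and microglia 14 in NS and 12 and 24 in COL. Among neurons, clusters 1, 5, 8 and 19 were mostly of NS and cluster 2 mostly of COL. Changes were tested with edgeR on UMIs summed per library and cell type, with Benjamini-Hochberg adjustment over all genes tested and a threshold of 0.05. With 2 libraries against 2, an exact permutation test of a single value cannot give a two-sided p below 0.333, and the p-values measure the spread between pooled libraries.

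COL replicate 1 had the lowest share of ribosomal protein RNA of the 4 libraries. UMIs of 85 ribosomal protein genes made up 0.0785% of its UMIs and 0.176% of those of COL replicate 2, against 0.266% and 0.279% in NS replicates 1 and 2. Mitochondrial genes made up 0.126% and 0.315% in COL and 0.275% and 0.204% in NS. The ribosomal share was lower in both COL libraries than in both NS libraries in neurons, oligodendrocytes, OPC, astrocytes and microglia. These shares are set beside the ferritin results, and their part in them was not tested.

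**Figure D1:**
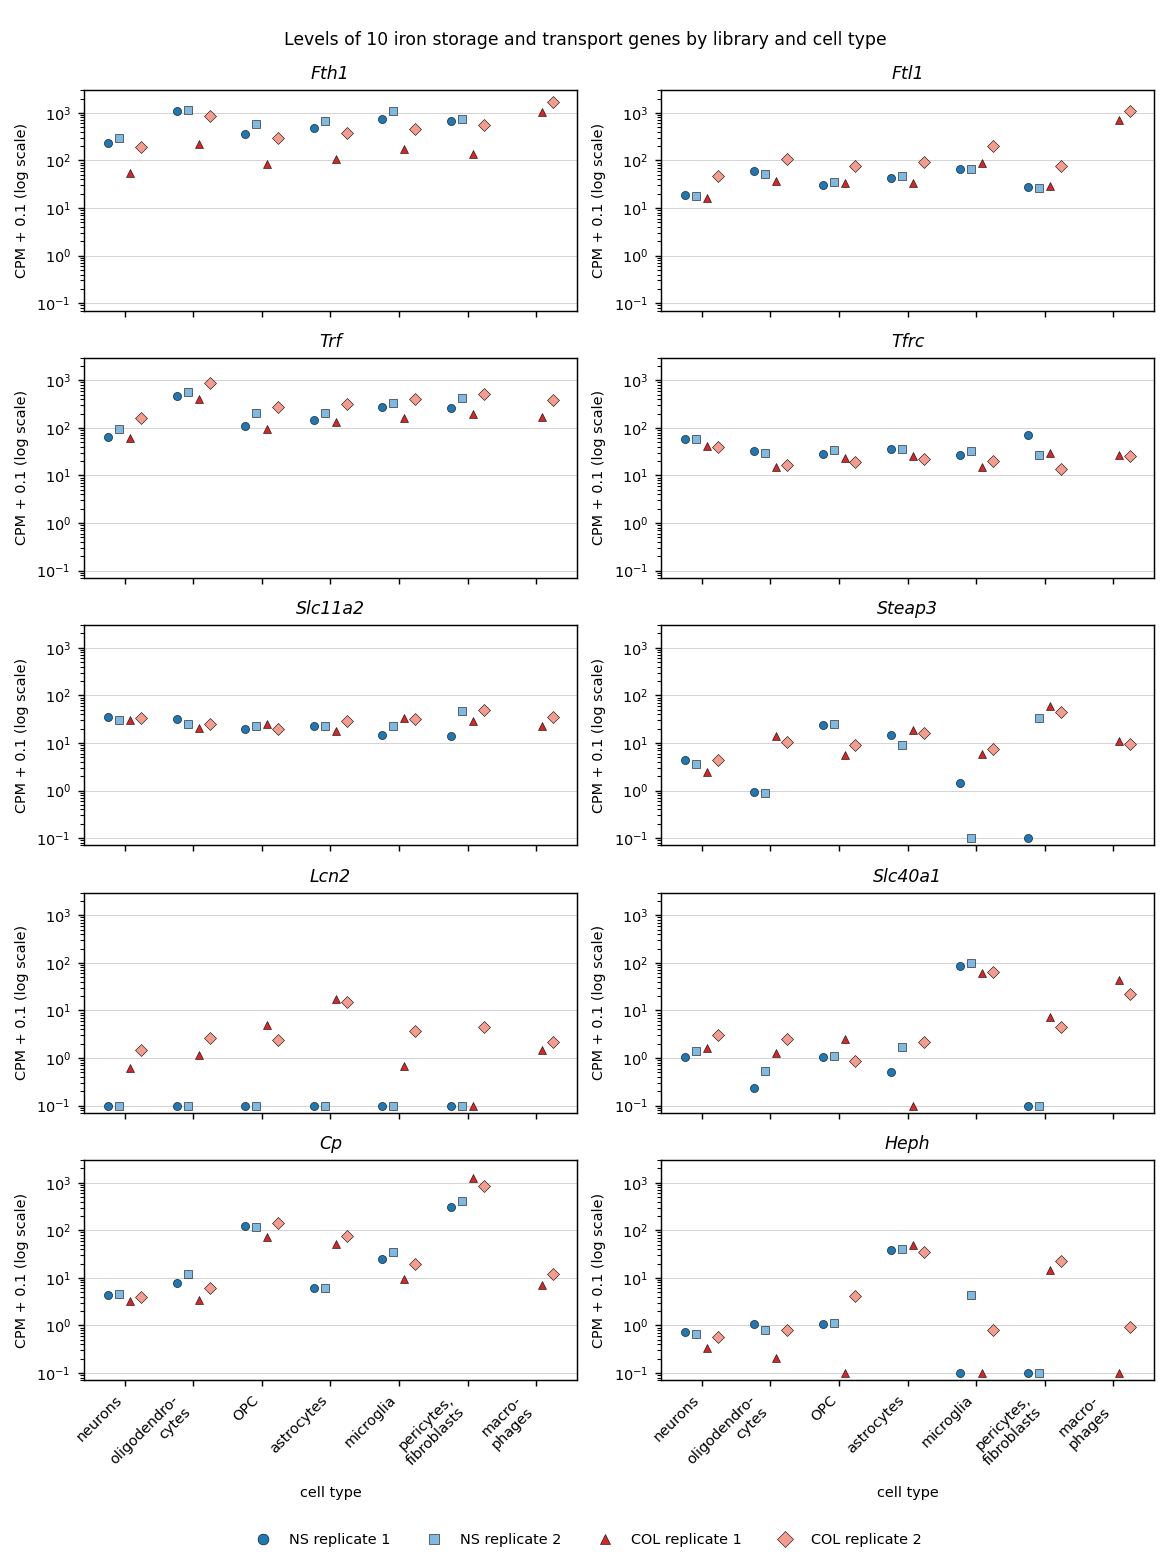
CPM of each of the 10 genes (log axis, 0.1 added) in 7 cell types, with a point for each library. NS macrophages are left out because the NS libraries held 2 and 4 such nuclei. Lcn2 lies at 0 in both NS libraries in every type, Cp is higher in COL astrocytes, and Steap3 is higher in COL oligodendrocytes.

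Of the 60 pairs of a gene and a tested cell type, 45 passed the filter on low counts and 10 were called. Steap3, Lcn2 and Slc40a1 were higher and Tfrc lower in COL oligodendrocytes, Cp and Lcn2 were higher in COL astrocytes, Ftl1 was higher and Fth1 lower in COL microglia, and Fth1 and Steap3 were lower in COL OPC. No gene of the set was called in neurons or in pericytes and fibroblasts. In oligodendrocytes 4 of 9 tested were called, against 22.5% of all genes tested, in astrocytes 2 of 9 against 16.2%, in microglia 2 of 7 against 28.8% and in OPC 2 of 7 against 18.0%. The share called lay near the background in microglia, and in astrocytes and OPC it exceeded the background by less than 1 gene.

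In neurons 0.0% of 23740 genes passed the threshold in edgeR, the lowest adjusted p over all genes being 0.0556, while 6663 genes had an unadjusted p below 0.05 and DESeq2 called 2528. In pericytes and fibroblasts 0.0% of 3559 genes passed in edgeR, with 490 at an unadjusted p below 0.05 and 1 called by DESeq2. Summed over the 6 types, 10 of 45 tests of members and 14.3% of all tests passed. Without COL replicate 1 it was 19 of 46, with 11.6% of all tests, and without COL replicate 2 it was 18 of 44, with 24.6% of all tests. The median log2 fold change of the genes tested was 0.35 in oligodendrocytes, 0.38 in astrocytes, -0.49 in microglia, -0.13 in OPC, 0.02 in neurons and -0.03 in pericytes and fibroblasts, and over all genes it lay between -0.02 and 0.02 in each of these types. Members that failed the filter were Heph in oligodendrocytes, Slc40a1 in astrocytes, Heph, Lcn2 and Steap3 in microglia, Heph, Lcn2 and Slc40a1 in OPC, and 7 genes in pericytes and fibroblasts, where Fth1, Trf and Cp remained.

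**Figure D2:**
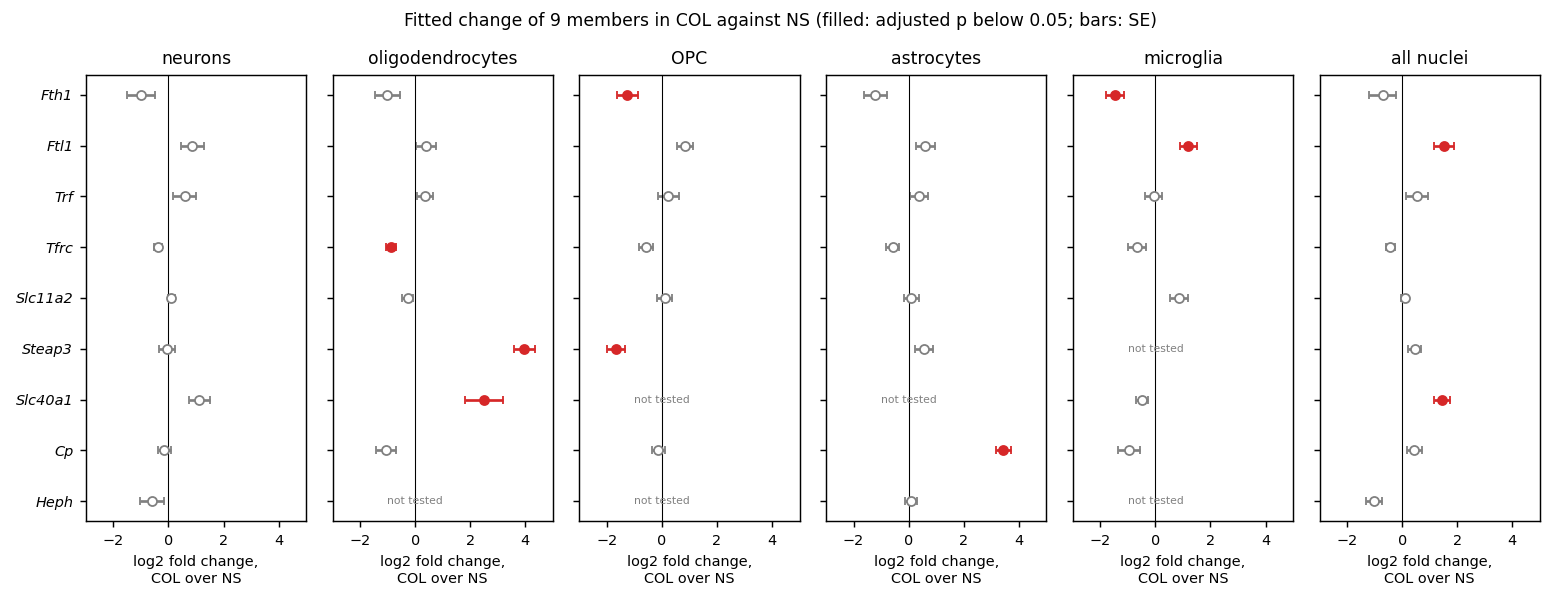
Log2 fold change of COL over NS with its standard error for 9 of the genes in 5 cell types and over all nuclei. Filled points passed an adjusted p of 0.05 in edgeR. Lcn2 is left out because its NS libraries were at 0.

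The ferritin chains moved in opposite directions in microglia. Fth1 (chr19:9980598-9985098, plus strand), the heavy chain, was called lower in COL microglia and OPC. Its change there differed from the mean change of the other types by -0.15 ± 0.15 and -0.20 ± 0.16. Neither difference passed (edgeR adjusted p = 0.754 and 0.742), so the fall was not set apart from that in the other types. Ftl1 (chr7:45457944-45459884, minus strand), the light chain, rose in COL microglia and was highest in the macrophages of COL. In microglia, the resident phagocytes of the brain, Fth1 measured 735 and 1078 CPM in NS replicates 1 and 2 and 176 and 462 CPM in COL replicates 1 and 2. Both COL libraries lay below both NS libraries, and Fth1 fell by 1.46 ± 0.32 on the log2 scale (SE, edgeR adjusted p = 0.00513). Per nucleus, microglia carried 1.70 and 2.25 UMIs of Fth1 in NS and 0.820 and 2.39 in COL, so that the groups overlapped on this scale, on which the deeper COL nuclei count for more. The change was -1.12 with an adjusted p of 0.0574 when nuclei were assigned by marker score, and DESeq2 gave an adjusted p of 0.155. In OPC, the cells that give rise to oligodendrocytes, Fth1 measured 364 and 569 CPM in NS and 85.5 and 295 CPM in COL. It fell by 1.25 ± 0.38 (edgeR adjusted p = 0.0416), a call that was lost with marker scores (0.0856), without doublets (0.0724) and in DESeq2 (0.489). The size of the fall differed between the COL libraries. In OPC the log2 change was -0.65 without COL replicate 1 and -2.38 without COL replicate 2, and in microglia it was -0.93 and -2.29, and each of these passed. Without NS replicate 2 the OPC change was -0.84 (adjusted p = 0.0479).

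Oligodendrocytes held the highest Fth1 levels among the tested types in NS, followed by microglia. Fth1 measured 1081 and 1122 CPM in the NS libraries and 217 and 839 CPM in the COL libraries, and the difference did not pass (log2 change -1.01 ± 0.46, edgeR adjusted p = 0.143). In astrocytes Fth1 measured 491 and 659 CPM in NS and 104.5 and 377 CPM in COL, with an edgeR adjusted p of 0.077. In each tested type both COL libraries lay below both NS libraries, and COL replicate 1 was the lowest of the 4. In neurons Fth1 measured 230 and 298 CPM in NS and 53.2 and 194 CPM in COL, and in pericytes and fibroblasts 658 and 750 CPM against 138 and 543 CPM. Per nucleus the neurons carried 2.58 and 3.14 UMIs of Fth1 in NS and 0.923 and 3.20 in COL, so that on this scale COL replicate 2 was not below the NS libraries. The ribosomal share of COL replicate 1 was the lowest of the 4 libraries in each of these types.

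Ftl1 rose in COL microglia. It measured 67.3 and 65.7 CPM in NS and 89.3 and 203.5 CPM in COL, or 0.156 and 0.137 UMIs per nucleus in NS and 0.417 and 1.05 in COL. Both COL libraries lay above both NS libraries on either scale. The log2 change was 1.2 ± 0.32 (edgeR adjusted p = 0.0144), and it was 0.50 with an adjusted p of 0.134 without COL replicate 2 and 1.19 with 0.0717 without NS replicate 1. In neurons the groups overlapped, with 19.0 and 17.6 CPM in NS and 15.9 and 45.9 CPM in COL. The groups also overlapped in oligodendrocytes (60.7 and 52.9 CPM in NS, 36.8 and 106 CPM in COL), in astrocytes (42.1 and 47.3 CPM in NS, 34.0 and 94.2 CPM in COL) and in OPC (30.9 and 34.6 CPM in NS, 34.1 and 77.4 CPM in COL). In these types COL replicate 2 was high in CPM and COL replicate 1 was within or below the range of NS. Per nucleus, where the deeper COL nuclei count for more, the groups did not overlap. The means were 0.199 UMIs in NS and 0.516 in COL neurons, 0.190 and 0.452 in oligodendrocytes, 0.164 and 0.453 in astrocytes and 0.165 and 0.476 in OPC.

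Ftl1 was highest in the macrophages of COL, of which the COL libraries held 269 and 423 nuclei and the NS libraries 2 and 4. COL macrophages had 1046 and 1670 CPM of Fth1 and 724 and 1075 CPM of Ftl1. Their Fth1 level in COL replicate 1 was below that of NS oligodendrocytes, and the unnamed nuclei of NS had 1890 and 2048 CPM of Fth1. Per nucleus the COL macrophages had 5.70 and 9.65 UMIs of Fth1 and 3.94 and 6.21 UMIs of Ftl1. Macrophages held 40.2% and 36.7% of the Ftl1 UMIs of the COL libraries and 20.9% and 15.7% of their Fth1 UMIs. With so few NS nuclei no change was tested in this type. The macrophages came from cluster 10, which scored highest for T and NK cells (4.81) and next for neutrophils (3.81). F13a1 and Lyz2 were among its leading genes. Each of its nuclei was named macrophage or T and NK cell by the larger number of markers found, or left unnamed. Ftl1 was also among the leading genes of the unnamed cluster 22, together with Cryab and Hsp90aa1, and this cluster held 45 to 140 nuclei of each library.

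The number of Fth1 UMIs for each Ftl1 UMI was lower in both COL libraries than in both NS libraries. In microglia there were 10.9 and 16.4 UMIs of Fth1 for each UMI of Ftl1 in NS, and 1.97 and 2.27 in COL. Over all nuclei the ratio was 13.5 and 18.0 in NS and 2.78 and 3.65 in COL. The groups did not overlap in any of the 5 larger types, and the COL libraries lay closer together in this ratio than in either level. In neurons the ratio was 12.1 and 17 in NS and 3.35 and 4.22 in COL, and in oligodendrocytes it was 17.8 and 21.2 in NS and 5.89 and 7.91 in COL. In OPC it was 11.8 and 16.4 in NS and 2.51 and 3.82 in COL, and in astrocytes 11.7 and 13.9 in NS and 3.07 and 4.0 in COL. COL macrophages had the lowest ratios, 1.44 and 1.55. The ratio was looked at after the levels had been seen and shows unequal change of the chains, not which of them changed, and it is given as a description, with no test.

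UMIs of 7 macrophage markers were also higher in COL in types that should lack them. In neurons they summed to 6.7 and 7.4 CPM in NS and to 18.4 and 51.8 CPM in COL, and in oligodendrocytes to 1.4 and 2.0 CPM in NS and to 33.4 and 86.0 CPM in COL. In microglia they summed to 8.1 and 83.9 CPM in NS and to 196.5 and 291 CPM in COL. Their part in the Ftl1 levels and in the ratio was not tested. Ferritin genes also have processed copies in the genome whose reads the counting may split or drop. The copies Ftl1-ps1 and Ftl2-ps carried 45 to 346 UMIs per library, and Fth-ps2 carried 55 to 92. In COL replicate 1 there were 346 UMIs of Ftl1-ps1 beside 2639 of Ftl1, and 55 of Fth-ps2 beside 7332 of Fth1. In COL replicate 2 there were 302 of Ftl1-ps1 beside 7149 of Ftl1. The levels of both chains are uncertain where reads were shared with copies, and the counted copies were fewer beside Fth1 than beside Ftl1.

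**Figure D3:**
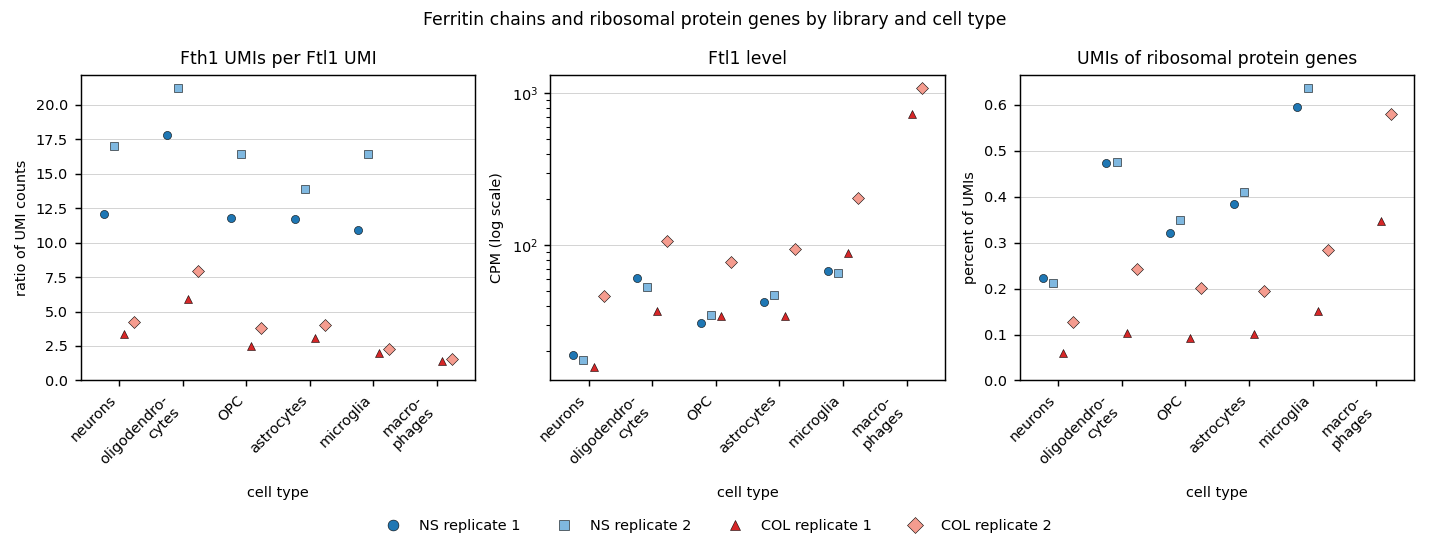
Left, UMIs of Fth1 per UMI of Ftl1. Middle, Ftl1 in CPM (log axis). Right, percent of UMIs from 85 ribosomal protein genes. Each point is a library, in 5 cell types and in macrophages (COL only). The ratio lies at 10.9 or above in the NS libraries and at 7.91 or below in the COL libraries, while the ribosomal share is lower in the COL libraries than in the NS libraries of the same type.

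Among the uptake genes, Steap3 changed in both oligodendrocytes and OPC. Steap3 (chr1:120190757-120272705, minus strand), the endosomal ferrireductase, was nearly absent from NS oligodendrocytes and present in those of COL. It measured 0.814 and 0.80 CPM in NS, from 6 and 9 UMIs, and 13.75 and 10.4 CPM in COL, from 130 and 106 UMIs. Both COL libraries lay far above both NS libraries. The log2 change was 3.96 ± 0.38 (edgeR adjusted p = 0.0014), or 15-fold on group means, and it passed under all 11 alternatives, with changes from 3.70 to 4.16. COL clusters 3 and 11 carried 9.63 to 14.1 CPM in each COL library, and NS clusters 0 and 7 carried 0.731 to 0.920 CPM in each NS library.

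In OPC Steap3 went the other way. It measured 24.2 and 24.6 CPM in NS and 5.38 and 9.01 CPM in COL, and it fell by 1.67 ± 0.34 on the log2 scale (edgeR adjusted p = 0.0063). The call held under all 11 alternatives, though leaving out clusters 7 and 9 did not touch the OPC sums. Both COL libraries lay below both NS libraries. The NS level came from cluster 16, which had 32.4 and 29.2 CPM in NS and held 2 and 8 nuclei of COL. In cluster 13, which both groups shared, Steap3 measured 6.115 and 15.25 CPM in NS and 5.40 and 9.19 CPM in COL, and the groups overlapped. Markers of committed precursors scored highest in cluster 13 and those of precursors in cluster 16, and the part of this makeup in the fall was not tested. In microglia Steap3 had 1 and 0 UMIs in NS and 10 and 21 in COL, a ratio of 9.89 with an exact 95% interval of 1.65 to 403 that covers counting error only. In astrocytes it measured 14.9 and 8.91 CPM in NS and 18.2 and 16.5 CPM in COL (edgeR adjusted p = 0.269).

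The change of Steap3 differed between the cell types by a test of the difference itself. The change in oligodendrocytes exceeded the mean change of the other types by 3.33 ± 0.86 on the log2 scale (edgeR adjusted p = 0.0262), and in OPC the difference was -3.53 ± 0.47 (adjusted p = 2.18e-05). Within neurons Steap3 was not called (-0.05 ± 0.30, edgeR adjusted p = 0.919). The neuron difference of -1.59 ± 0.39 (adjusted p = 0.0147) was taken from a mean that holds the rise in oligodendrocytes, as was the OPC difference. Within OPC the change itself was -1.67 ± 0.34. All of these means also hold a microglial change that rests on 1 UMI in NS. In these contrasts 2.6%, 1.63% and 3.64% of 18235 genes were called. The OPC difference passed under all 11 alternatives, while the oligodendrocyte difference was lost without NS replicate 1 and without NS replicate 2, in fits whose standard error was too large to use (adjusted p = 1.0 in both), and without the library block (0.0548). The neuron difference was lost without NS replicate 1 (0.0574), without COL replicate 1 (0.106) and without the library block (0.155).

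Tfrc (chr16:32608920-32632794, plus strand), the transferrin receptor, was lower in COL oligodendrocytes. It measured 32.3 and 29.5 CPM in NS and 15.2 and 16.4 CPM in COL, and fell by 0.89 ± 0.18 on the log2 scale (edgeR adjusted p = 0.0134). The call was lost without NS replicate 1 (adjusted p = 0.0692) and without NS replicate 2 (0.0734), with changes of -0.88 and -0.90. In neurons Tfrc measured 59.2 and 57.4 CPM in NS and 40.9 and 39.5 CPM in COL, in astrocytes 36.0 and 36.2 CPM against 25.3 and 22.1 CPM, and in microglia 26.9 and 32.2 CPM against 15 and 20.1 CPM. In these types, and in OPC, both COL libraries lay below both NS libraries, but none passed, with edgeR adjusted p-values of 0.164 (neurons), 0.101 (astrocytes), 0.146 (microglia) and 0.151 (OPC). The change in oligodendrocytes differed from the mean change of the other types by -0.22 ± 0.21, which did not pass (edgeR adjusted p = 0.814). Unlike Fth1, the COL libraries differed little from each other in CPM. Per nucleus, a scale on which the deeper COL nuclei count for more, the COL means of these types were not lower. They were 0.635 UMIs in NS and 0.680 in COL neurons, 0.133 and 0.163 in astrocytes, 0.0647 and 0.0869 in microglia and 0.157 and 0.175 in OPC. Oligodendrocytes had means of 0.103 UMIs per nucleus in NS and 0.0975 in COL. The neurons of cluster 20, led by Nwd2 and Scube1, had the highest level of the neuron clusters, with 128 and 146 CPM in NS and 184.5 and 113 CPM in COL. Endothelium, with 5 to 14 nuclei per library, had 355.5 and 409 CPM in NS and 84.8 and 291 CPM in COL, from 5 to 16 UMIs per library.

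Lcn2 (chr2:32384633-32388252, minus strand), which encodes lipocalin 2, a protein that binds iron-carrying siderophores and is known as a marker of reactive astrocytes, had no UMI in either NS library. The COL libraries had 74 and 148 UMIs. With the floor of 3 counts over the NS group, Lcn2 was at least 77.9-fold higher in COL over all nuclei and at least 45-fold higher in astrocytes. Astrocytes had the highest level of the tested types, 17.4 and 14.9 CPM from 22 and 29 UMIs, and passed with an edgeR adjusted p of 0.000887 that held under all 11 alternatives. Leaving out clusters 7 and 9, among these, did not touch the astrocyte sums. Few nuclei carried it: the 50 Lcn2 UMIs of astrocyte cluster 18 lay in 26 of its 534 nuclei. In oligodendrocytes Lcn2 had 1.06 and 2.56 CPM from 10 and 26 UMIs (edgeR adjusted p = 0.0107), a call that only 7 of the alternatives could test. In neurons it had 0.512 and 1.38 CPM from 26 and 61 UMIs (edgeR adjusted p = 0.111). Microglia had 0.576 and 3.53 CPM, OPC 4.78 and 2.25 CPM and macrophages 1.37 and 2.05 CPM in COL. The oligodendrocyte levels lay within the range of these types and of neurons in both COL libraries, and the part of free RNA in them was not tested. Neutrophils, which also carry lipocalin 2, formed no cluster of their own, and the split of cluster 10 allowed no neutrophil name. By marker score 4 nuclei of COL replicate 2 were named neutrophils. Over all nuclei 6 neutrophil markers summed to 0.7 and 0.6 CPM in NS and 2.1 and 4.3 CPM in COL. In COL macrophages the same markers summed to 36.9 and 33.2 CPM.

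Trf (chr9:103204001-103230444, minus strand), transferrin itself, was highest in oligodendrocytes among the tested types in both groups. It measured 475 and 572 CPM in NS and 404 and 875 CPM in COL oligodendrocytes, and the groups overlapped in CPM (log2 change 0.35 ± 0.30, edgeR adjusted p = 0.425). Per nucleus, where the deeper COL nuclei count for more, oligodendrocytes had means of 1.74 UMIs in NS and 4.02 in COL. In neurons it measured 65.2 and 93.5 CPM in NS and 61.5 and 159 CPM in COL. The levels in neurons, OPC, astrocytes, microglia and macrophages went from 61.5 to 396 CPM, and in each of these tested types COL replicate 2 was above COL replicate 1 and above the higher NS library. The 8 oligodendrocyte markers were found in the same nuclei, with 457 to 999 CPM in neurons against 10250 to 13130 CPM in oligodendrocytes, and their part in the Trf levels was not tested. No change of Trf passed in any type, the lowest edgeR adjusted p being 0.372.

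Slc11a2 (chr15:100387898-100425072, minus strand), the divalent metal transporter DMT1, had no call in any type. It lay between 14.0 and 49.4 CPM in the tested types and all libraries, and over all nuclei at 33.6 and 29.1 CPM in NS and 28.35 and 31.6 CPM in COL. In microglia it measured 14.8 and 22.4 CPM in NS and 34.0 and 31.0 CPM in COL. The microglial groups did not overlap, but the counts were 11 and 16 UMIs in NS and 59 and 88 in COL, and the change did not pass (0.85 ± 0.34, edgeR adjusted p = 0.0758). The sign of the log2 change over all nuclei and in neurons turned when plain totals replaced TMM scaling, which shifted the changes by 0.151 over all nuclei and by 0.164 in neurons.

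Of the export genes, Cp changed most, and it did so in astrocytes. Cp (chr3:19957054-20009145, plus strand) encodes ceruloplasmin, a ferroxidase whose membrane-bound form is known from astrocytes. It measured 6.07 and 5.94 CPM in NS astrocytes, from 29 and 22 UMIs, and 51.5 and 74.6 CPM in COL astrocytes, from 65 and 145 UMIs. Both COL libraries lay far above both NS libraries. The log2 change was 3.43 ± 0.27 (edgeR adjusted p = 0.000231), or 10.5-fold on the means of the summed levels. It passed under all 11 alternatives, with changes from 3.12 to 4.14, though leaving out clusters 7 and 9 did not touch the astrocyte sums. Few nuclei carried these UMIs: 22 (1.82%) and 21 (1.94%) of the NS astrocytes and 13 (6.67%) and 23 (8.61%) of the COL astrocytes had any, so the change is one of the summed level, and Cp was not detected in most astrocytes of either group. In cluster 18, which held most COL astrocytes and 45 and 32 nuclei of NS, Cp measured 22.1 and 7.67 CPM in NS, from 6 and 1 UMIs, and 51.55 and 75.1 CPM in COL. That cluster held 217 Cp UMIs in 40 of its 534 nuclei, and its marker score was 2.32 for astrocytes and 2.07 for ependyma and choroid plexus, whose epithelium is known to express Cp. The 6 markers of ependyma and choroid plexus summed to 35.0 and 12.7 CPM in NS astrocytes and 25.3 and 13.4 CPM in COL astrocytes, and the part of such cells in the Cp result was not tested.

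Cp was highest in pericytes and fibroblasts, and it was among the leading genes of their cluster 25, so these levels are a description. It measured 308 and 422 CPM in NS and 1268 and 844 CPM in COL, from 22 to 46 nuclei per library, and the change did not pass (1.40 ± 0.41, edgeR adjusted p = 0.143). OPC had 124 and 116 CPM in NS and 73.0 and 140 CPM in COL, and these groups overlapped. With nuclei assigned by marker score Cp in OPC averaged 82.2 CPM in NS and 50.8 CPM in COL, and it then passed as lower in COL (log2 change -0.65 ± 0.15, edgeR adjusted p = 0.0223). In oligodendrocytes Cp measured 7.87 and 12.1 CPM in NS and 3.28 and 5.91 CPM in COL, and in microglia 24.2 and 35.0 CPM against 9.22 and 19.0 CPM. In both of these types the COL libraries lay below the NS libraries in CPM without passing (edgeR adjusted p = 0.0656 and 0.092). Per nucleus the means were 0.033 UMIs in NS and 0.0288 in COL oligodendrocytes, and 0.0645 and 0.0708 in microglia.

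The change of Cp in astrocytes exceeded the mean change of the other types by 3.54 ± 0.34 on the log2 scale (edgeR adjusted p = 1.17e-07), in a contrast that called 1.35% of genes. It lay below the mean of the others in oligodendrocytes by a difference of -1.78 ± 0.32 (adjusted p = 0.000589). Both differences passed under all 11 alternatives. The means set against oligodendrocytes, and against microglia below, hold the rise in astrocytes. Within these types Cp changed by -1.07 ± 0.36 and -0.96 ± 0.40, and neither passed (edgeR adjusted p = 0.0656 and 0.092). In microglia the difference was -1.52 ± 0.45 (adjusted p = 0.0362, 6.41% of genes called), and in pericytes and fibroblasts it was 1.29 ± 0.31 (adjusted p = 0.0367, 0.548% of genes called). Of these last differences, the microglial one lost its call under 4 of 11 alternatives, with adjusted p-values of up to 0.256 without NS replicate 2, and the pericyte one under 7 of 11, with up to 0.418 by marker score and 0.0927, 0.119 and 0.311 without NS replicate 1, NS replicate 2 and COL replicate 1.

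Slc40a1 (chr1:45908068-45926523, minus strand), ferroportin, was highest in microglia among the tested types. In microglia it measured 87.5 and 97.9 CPM in NS and 62.2 and 65.6 CPM in COL, and the lower COL level did not pass (log2 change -0.49 ± 0.20, edgeR adjusted p = 0.092). The groups did not overlap in CPM. Per nucleus the direction was the other way, with means of 0.203 UMIs in NS and 0.315 in COL. On that scale the deeper COL nuclei count for more. With nuclei assigned by marker score the difference in CPM was gone, with means of 48.2 CPM in NS and 46.9 CPM in COL. The log2 change was then 0.03 (edgeR adjusted p = 0.941). The dividing microglia of COL cluster 24, led by Top2a and Mki67, had 34.5 and 47.0 CPM, and the other COL microglia of cluster 12 had 74.5 and 75.7 CPM. COL macrophages had 43.0 and 21.7 CPM. In oligodendrocytes Slc40a1 had 0.136 and 0.445 CPM in NS, from 1 and 5 UMIs, and 1.16 and 2.36 CPM in COL, from 11 and 24 UMIs, which passed in edgeR (2.49 ± 0.69, adjusted p = 0.0332). This call was lost without NS replicate 1 (log2 change 1.98, adjusted p = 0.193), without NS replicate 2 (3.69, 0.0809) and without COL replicate 2 (1.92, 0.146). COL neurons had 1.56 and 2.92 CPM, so the level in COL oligodendrocytes was not above that in COL neurons, and the part of free RNA in it was not tested. NS neurons had 0.960 and 1.29 CPM, above the NS oligodendrocytes.

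Heph (chrX:96455359-96574485, plus strand), hephaestin, was found mostly in astrocytes. Astrocytes had 39.2 and 40.5 CPM in NS and 49.1 and 35.0 CPM in COL, with a log2 change of 0.08 ± 0.22 (edgeR adjusted p = 0.835). The groups overlapped. Neurons, oligodendrocytes, OPC and microglia stayed between 0 and 4.19 CPM. Endothelium had 39.5 and 25.6 CPM in NS and 0 and 22.4 CPM in COL, from 0 or 1 UMI per library. Pericytes and fibroblasts had no UMI in NS and 14.6 and 22.4 CPM in COL, from 2 and 5 UMIs. Between 51.9% and 75.6% of the Heph UMIs of each library lay in astrocytes, which made up 12.5% and 10.4% of NS nuclei and 3.29% and 4.26% of COL nuclei.

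Over all nuclei, 3 of the 10 genes were called, all higher in COL, against 9.45% of 25570 genes tested. In such sums fewer cells of a type and less RNA per cell cannot be told apart. Ftl1 measured 25.6 and 26.8 CPM in NS and 38.0 and 103 CPM in COL (log2 change 1.53 ± 0.37, edgeR adjusted p = 0.0495), a call that was lost without doublets (0.0527). The size of the change rested on COL replicate 2, without which it was 0.71 with a passing test. Slc40a1 measured 1.86 and 2.34 CPM in NS and 4.16 and 6.32 CPM in COL (1.45 ± 0.29, adjusted p = 0.0357), and its call was lost without NS replicate 1 (0.099). Microglia and macrophages, which held 37.4% and 42.4% and 21.8% and 12.1% of the Slc40a1 UMIs in COL, were more of the COL nuclei. Microglia made up 3.32% and 3.29% of nuclei in NS and 6.27% and 8.75% in COL, and macrophages 0.021% and 0.038% in NS and 4.54% and 6.75% in COL. The part of these shares in the change was not tested. Lcn2 was the third (adjusted p = 0.00707). Heph measured 3.66 and 3.19 CPM in NS and 1.18 and 1.89 CPM in COL (adjusted p = 0.0714), beside the lower share of astrocytes. The median log2 fold change of the set was 0.45 and that of all genes 0.02. Without COL replicate 2 the number called was 5, while the share of all genes called was 26.3%.

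Haemoglobin RNA was not higher in COL. The 4 haemoglobin genes summed to 3.37 and 7.81 CPM in NS and 1.61 and 2.49 CPM in COL. Red cells of the mouse have no nucleus.

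Other genes of iron handling were taken from 4 lists. In the list of iron uptake and reduction, all 12 genes were listed and 6 to 8 were tested in oligodendrocytes, OPC, astrocytes and microglia. Slc39a14, which encodes the zinc and iron transporter ZIP14, was higher in COL in each of these 4 types. It measured 14.25 and 15.3 CPM in NS and 90.0 and 86.2 CPM in COL oligodendrocytes (log2 change 2.65 ± 0.18, edgeR adjusted p = 0.000485), and 18.9 and 16.8 CPM in NS and 136.5 and 130.5 CPM in COL microglia (2.95 ± 0.25, adjusted p = 1.37e-05). In astrocytes it measured 48.4 and 38.9 CPM in NS and 137 and 118 CPM in COL (1.57 ± 0.18, adjusted p = 0.00107), and in OPC 43.2 and 30.6 CPM against 80.7 and 92.8 CPM (1.26 ± 0.19, adjusted p = 0.00154). The COL libraries lay close together and far above the NS libraries in each type, unlike the ferritin chains.

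The Slc39a14 change in neurons lay below the mean of the other types by a difference of -2.04 ± 0.17 (edgeR adjusted p = 5.44e-09). That contrast called 3.64% of genes. Neurons themselves had 32.2 and 35.0 CPM in NS and 41.7 and 40.0 CPM in COL, so their level was not lower in COL. Pericytes and fibroblasts, which enter that mean, had 14.0 and 20.1 CPM in NS, from 1 and 3 UMIs, and 269.6 and 166.1 CPM in COL. Over all nuclei Slc39a14 rose by 1.03 ± 0.14 (edgeR adjusted p = 0.0141). Slc22a17, the receptor of lipocalin 2, was lower in COL in the same 4 types, with log2 changes from -0.89 in OPC to -1.58 in microglia, where it measured 238 and 210 CPM in NS and 50.1 and 91.7 CPM in COL (adjusted p = 0.000416). Slc25a37, the mitochondrial iron carrier mitoferrin 1, was higher in COL oligodendrocytes (8.96 and 6.04 CPM in NS, 13.85 and 12 CPM in COL, adjusted p = 0.0437). The list thus had 1 gene higher and 1 lower in astrocytes, microglia and OPC, and 2 higher and 1 lower in oligodendrocytes, with medians from -0.07 to 0.15. That is 2 of 7 genes tested in astrocytes beside 16.2% of all genes, 2 of 7 in microglia beside 28.8%, 2 of 6 in OPC beside 18.0% and 3 of 8 in oligodendrocytes beside 22.5%.

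Of the ferritin handling genes and iron chaperones, 3 of 4 were listed, and Pcbp1, which delivers iron to ferritin, was lower in COL astrocytes, microglia and OPC. In microglia it measured 51.2 and 44.7 CPM in NS and 17.3 and 21.9 CPM in COL (log2 change -1.23 ± 0.29, edgeR adjusted p = 0.00689). Of the genes that control iron levels, 2 were higher in astrocytes (Bach1 and Bmp6) and 2 in microglia (Nfe2l2 and Neo1), and 1 was lower in oligodendrocytes (Hamp2). Bach1, a repressor that senses haem, measured 13.8 and 12.4 CPM in NS and 27.7 and 31.4 CPM in COL astrocytes (1.21 ± 0.25, adjusted p = 0.012). Nfe2l2, the activator of antioxidant genes, measured 180 and 158 CPM in NS and 260 and 216 CPM in COL microglia (0.54 ± 0.17, adjusted p = 0.0325). All 9 genes of iron-sulphur cluster assembly were tested, and Iscu, the scaffold of that assembly, was lower in COL in oligodendrocytes, OPC, astrocytes and microglia, with 32.2 and 30.3 CPM in NS and 6.35 and 13.9 CPM in COL oligodendrocytes (-1.55 ± 0.30, adjusted p = 0.0112). Isca2 was lower in microglia (adjusted p = 0.0264) and Glrx5 in oligodendrocytes (0.0236). Over these 4 types the list medians went from -0.52 to 0.17 for the chaperones, from 0.06 to 0.45 for the control genes and from -0.27 to -0.13 for the assembly genes, and in neurons no gene of the 4 lists was called. Against the same shares of all genes, astrocytes had 1 of 3 chaperones, 2 of 7 control genes and 1 of 9 assembly genes called, microglia 1 of 3, 2 of 7 and 2 of 9, OPC 1 of 3, 0 of 6 and 1 of 9, and oligodendrocytes 0 of 3, 1 of 8 and 2 of 9. Iscu, Pcbp1, Glrx5 and Slc22a17 were lowest in COL replicate 1, as the ribosomal share was, in the types named.

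The genes whose levels went most like those of a member were found over the 24 sums of a library and a cell type, among 10947 genes with a mean of at least 10 CPM, by Pearson's r of log2(CPM + 1). The sums share libraries and depth, so r is a description. For Fth1 they were Tpt1 (0.960), Cnp (0.954) and Actb (0.951), and for Ftl1 mt-Rnr2 (0.828), Rab5c (0.812) and Ctsb (0.808). For Trf they included Gsn (0.908) and Cldn11 (0.908), of which Cldn11 marks oligodendrocytes. Tfrc went with Prr7 (0.863), Rufy2 (0.860) and Serp2 (0.856), Slc11a2 with Dgat1 (0.742), Sema3a (0.724) and Nadsyn1 (0.722), Steap3 with Lrrk2 (0.765), Creb3l1 (0.760) and Zdhhc15 (0.758), and Cp with Svil (0.901), Zfp362 (0.898) and Ier3 (0.894). Slc40a1, Heph and Lcn2 had fewer than 1000 UMIs in these types.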

How the data were processed

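For each of the 4 libraries the authors deposited a matrix of raw UMI counts, with genes in rows and nuclei in columns. Per the submitters' processing notes and the study's methods they were made from 10x Genomics 3′ libraries of nuclei with Cell Ranger 1.2.0 and the mm10 reference. Whether reads of introns were counted, and any removal of free RNA, is not given in the sources used here.

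A nucleus was kept if it had over 50 genes and under 5% of its UMIs from mitochondrial genes, which left 68723738 to 77546840 UMIs per library, and nuclei were clustered in Seurat 5.3.0 (5000 variable genes, 15 principal components, resolution 0.8, 32 clusters) after 13 iron genes had been taken out of the variable genes. The 10 genes, the gene lists and the marker lists were chosen with earlier results of these data known. Clusters were named from markers, and 2 clusters were split after they had been seen. Clusters of over 50% doublets were set aside as mixed. A type was tested if each library held 20 or more of its nuclei.

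UMIs were summed per library and cell type and tested with edgeR 4.0.16 (TMM, filterByExpr, quasi-likelihood F test, R 4.3.3), and standard errors were taken as the log2 fold change divided by the root of F. Differences between types were tested as a contrast with the library as a block. DESeq2 1.42.0 was an alternative. On simulated counts with 2 libraries against 2, edgeR called 87% of genes changed 4-fold and 22% of those changed 2-fold in oligodendrocytes (17139 genes, 2 false calls), and 74% and 11% in astrocytes (14501 genes, 4 false calls). The simulated counts had a single fixed dispersion for all genes, so these shares do not hold for genes whose libraries differed more. They were 84% and 13% in neurons, where no gene of the real data passed in edgeR. Nuclei of a library share mice and preparation, so the library was the replicate. Intervals and floors cover counting error only. The rule for genes outside the set named at most 3 per list and comparison, by lowest p, and 3 like genes for each member with at least 1000 UMIs. A gene like Trf is not reported here. Iron-responsive elements were searched in GENCODE M21 transcripts. Python 3.11.15, numpy 2.4.6, pandas 2.3.3, scipy 1.17.1 and matplotlib 3.10.9 were used.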

Additional observations from a re-analysis of the deposited data

Results flagged for a closer look

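For Cp and Steap3 the change in COL differed between cell types by the interaction test, which set the log2 change in a type against the mean change in the other types tested. For Cp the difference was 3.54 in astrocytes, 1.29 in pericytes and fibroblasts, -1.52 in microglia and -1.78 in oligodendrocytes. For Steap3 it was 3.33 in oligodendrocytes, -1.59 in neurons and -3.53 in OPC. The means set against Cp in microglia and oligodendrocytes hold its rise in astrocytes. Those set against Steap3 in neurons and OPC hold its rise in oligodendrocytes. No other member passed this test in any type. For Lcn2, which had no UMI in NS, the standard error was too large to use in every type, so the test could not decide. It was also large for Slc40a1 in oligodendrocytes (21.4) and in pericytes and fibroblasts (7.44), and for Heph in the latter (4.61). In the other types it went from 1.01 to 2.09 for Slc40a1 and from 0.685 to 2.26 for Heph. Neither gene had a UMI in NS pericytes and fibroblasts, which enter the mean there, so the test could decide little for them. Groups of 2 libraries are too small for a test of outlying libraries.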

How the results depend on the processing

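Of the alternatives to 20 called values of single genes, 177 of 208 kept the direction and the call, 31 kept the direction and lost the call, and none turned the direction. Alternatives that gave no adjusted p for a value are not among the 208. In oligodendrocytes 7 of 11 were left for Lcn2 and 9 of 11 for Slc40a1. A limit of 500 genes per nucleus, which 50 nuclei failed, and no filter on low counts each kept all 20. The calls of Cp and Lcn2 in astrocytes and of Steap3 in oligodendrocytes and OPC held under all 11 alternatives. The alternative without 2 clusters took out cluster 7 of oligodendrocytes and cluster 9 of neurons. It left the sums of astrocytes, OPC and microglia unchanged, so it could not alter calls within these types. Such cases are among the 177. Within cell types 10 calls were made in 45 tests of members (14.3% of all tests), 19 in 60 with no filter on low counts (9.46%), 7 in 50 with DESeq2 (9.57%), 9 in 45 without doublets (14.1%) and 9 to 19 with each library left out in turn (7.55 to 24.6%). Over all nuclei 3 genes were called, 6 with no filter on low counts (17.2% of all genes), and 2 to 5 with each library left out (6.04 to 26.3%). The tests of the difference between types made 7 calls, 3 without the library block (0.732% of all tests, against 2.7% with it) and 4 to 8 with each library left out (1.19 to 2.19%).

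The replicate numbers of NS and COL share no stated pairing, and the deviations of same-numbered libraries had correlations between -0.041 and 0.166. With the replicate number as a block, 16 calls were made within cell types (18.8% of all tests) and 5 over all nuclei (21.8% of all genes), and it lost none of the 13 calls made without it. Assignment of nuclei by marker score moved the mean level of Slc40a1 in microglia to 47.6 CPM from 78.3 and that of Heph in astrocytes to 34.8 CPM from 40.9. Leaving out 2 clusters led by a marker of another type was chosen after the data had been seen and gave 8 calls within types (14.4% of all tests) and 6 in the differences (2.83%). Depth limits Lcn2 in every tested type, where a library held at most 61 UMIs, with 22 and 29 in COL astrocytes. It also limits Heph outside astrocytes, where a library held at most 35 UMIs in any tested type, and the pericyte and fibroblast sums.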
